A study of Homo sapiens with 12 samples.

Results

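The human liver cancer cell lines Huh7 and HCCLM3 were compared in the libraries that had received a control siRNA (si-NC), 3 of each line. These 6 libraries were chosen by their labels alone, out of 12 mRNA sequencing libraries. The other 6 came from the same 2 lines after an siRNA against circASH2, a circular RNA whose host gene is ASH2L. They give a second view of the same difference. They also entered the fit, so the filter and the estimate of spread behind the p-values rest on all 12. Huh7 is a line from a well differentiated hepatocellular carcinoma. HCCLM3 belongs to a series of human hepatocellular carcinoma lines bred through mice for spread to the lung. Each is 1 established line from 1 tumour, so tumour, growth history in culture and any difference in handling cannot be told apart. The labels number the libraries without naming them as independent cultures. The p-values therefore rest on a spread between libraries that could be purely technical.

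Hepatocytes make most of the proteins of blood plasma, package fat into lipoproteins and clear ammonia, bile acids and drugs. A network of transcription factors that includes HNF4A, FOXA2 and CEBPA holds this program in place. Carcinomas of the liver keep it to differing degrees, and often turn on genes of the fetal liver such as AFP and GPC3. Spreading carcinoma cells are studied for their cadherins, integrins, matrix proteases and actin binding proteins, and for receptors such as MET, which binds hepatocyte growth factor.

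The total count was between 29006781 and 30858895 per si-NC library. Levels are given in CPM, each gene's counts relative to the depth of its library, scaled with TMM factors, and 16946 of 23583 features were tested with edgeR. Of these, 14445 passed at an adjusted p of 0.05, which is 85.2% of those tested. HCCLM3 was the higher line in 7056 (41.6%) and the lower in 7389 (43.6%). The libraries of the lines did not overlap in 86.5% of the features. A pass alone therefore says little here, so the counts of gene lists are also given beyond 2-fold. Called genes with more than a 2-fold difference numbered 3921 higher in HCCLM3 (23.1%) and 4174 lower (24.6%). Each list share beyond 2-fold given below is to be read beside these shares. With more than an 8-fold difference there were 1518 higher (8.96%) and 1989 lower (11.7%). The median log2 fold change, HCCLM3 over Huh7, was -0.04 over all features tested. Where a gene had no count in any library of a line, its fold is given as a lower limit against 3 counts over that group, which is 0.033 CPM in Huh7 and 0.0337 CPM in HCCLM3. What a single count stands for at this low end is not given in the sources used here, and over the 12 libraries counts of 2 (6826) were more frequent than counts of 1 (1938), so such limits are approximate. By that limit, 15 of the 1518 and 20 of the 1989 did not reach 8-fold. Intervals of ratios that rest on 1 to 3 counts in a line are exact 95% intervals, and limits and intervals cover counting error only. Values given as 3 numbers are libraries 1, 2 and 3 of a line. For every gene given such values below, the libraries of the 2 lines did not overlap, so that fact is not repeated.

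Both lines were labelled as hepatocellular carcinoma cells, and the hepatocyte markers went different ways. The keratins of hepatocytes, KRT8 and KRT18, were abundant in both. KRT8 had 1869, 1944 and 1917 CPM in Huh7 and 4004, 3886 and 3916 CPM in HCCLM3, and it was 2.06-fold higher in HCCLM3 (log2 fold change 1.04 ± 0.03 SE, edgeR adjusted p = 1.4e-20). KRT18 had means of 963 ± 38.2 CPM in Huh7 and 1462 ± 42.3 CPM in HCCLM3 (SD, n = 3). The factor HNF4A was expressed in both, while ALB, APOA1, TTR and SERPINA1 were high in Huh7 and under 5 CPM in every HCCLM3 library. In Huh7 all of these markers were present. In HCCLM3 the keratins and HNF4A were present, and the secreted proteins were at or near 0. In cultures of a line, fewer expressing cells and less RNA per cell cannot be told apart.

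**Figure D1:**
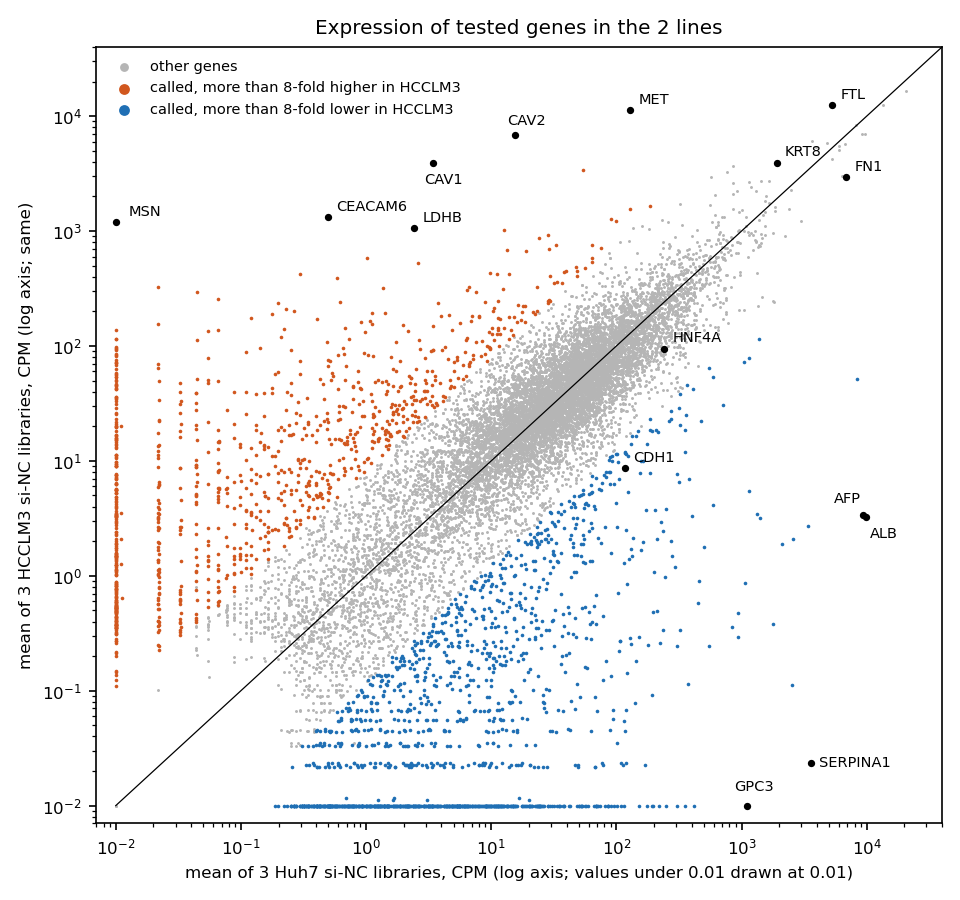
Mean expression of 14432 tested genes with a gene name in the 3 Huh7 si-NC libraries (x axis, CPM, log scale) and the 3 HCCLM3 si-NC libraries (y axis, CPM, log scale), with means under 0.01 CPM drawn at 0.01; orange and blue points are called genes more than 8-fold higher or lower in HCCLM3. MSN lies on the left edge with no count in Huh7, GPC3 on the lower edge with no count in HCCLM3, and ALB and AFP far to the lower right at 9864 and 9341 CPM in Huh7.

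The largest differences were between expression and none. Among called genes with at least 20 CPM in the higher line, the 10 furthest down in HCCLM3 were GPC3, SERPINA1, SERPING1, LIN28B, MASP1, FABP1, MAL2, ADGRL2, GJA1 and COL2A1. GPC3, a heparan sulfate proteoglycan of the fetal liver, had 1128, 1091 and 1077 CPM in Huh7 and no count in any HCCLM3 library. It was therefore at least 32550-fold lower in HCCLM3 (edgeR adjusted p = 9.87e-29). SERPINA1, the plasma inhibitor of neutrophil elastase, had 3518, 3489 and 3711 CPM in Huh7, and 2 counts over the HCCLM3 libraries. Its ratio was 158800-fold lower in HCCLM3, with a counting interval of 43970 to 1311000. LIN28B, an RNA binding protein of fetal tissue, had 361, 351 and 354 CPM in Huh7 and no count in HCCLM3. The other 7 had Huh7 means from 174 CPM (COL2A1) to 418 CPM (SERPING1), again with no count in HCCLM3.

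At the other end, the 10 genes furthest up in HCCLM3 included MSN, DHRS9, MSC, MMP7, PLPP2, TUSC3, OLFM1, IFI16 and IL13RA2, and none of the 10 had a count in any Huh7 library. MSN encodes moesin, which ties actin filaments to the cell membrane. It had 1196, 1221 and 1174 CPM in HCCLM3, so it was at least 36270-fold higher in HCCLM3 (edgeR adjusted p = 2.18e-28). The other 8 named had HCCLM3 means from 83.0 CPM (IL13RA2) to 137 CPM (DHRS9). Over all genes with a name, 336 had at least 5 CPM in Huh7 and at most 0.1 CPM in HCCLM3, 211 of them without a count in HCCLM3. In the opposite direction there were 182, of which 95 had no count in Huh7.

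Plasma proteins of the hepatocyte were nearly all far lower in HCCLM3. Of 32 tested members, 31 were lower in HCCLM3, all 31 by more than 2-fold and 29 by more than 8-fold (beside 24.6% and 11.7% of all genes), and none was higher. The members were chosen with earlier results of these data known, so their direction is a description. AFM, the 1 tested member that did not pass, was low in both lines. Their median log2 fold change was -8.43, or -7.83 with genes at 0 set at their limit. Together they took 2.96, 2.93 and 2.99% of the counts of the Huh7 libraries and 0.0164, 0.0151 and 0.0184% of those of the HCCLM3 libraries. Albumin, the main protein of plasma, led the list. ALB had 10090, 9932 and 9568 CPM in Huh7 and 3.43, 2.099 and 4.18 CPM in HCCLM3, and it was 3023-fold lower in HCCLM3 (log2 fold change -11.56 ± 0.13 SE, edgeR adjusted p = 5.95e-14). The highest HCCLM3 library lay more than 8-fold below the lowest Huh7 library.

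The 3 fibrinogen chains, which polymerise into the clot, were low together in HCCLM3. FGA had 1317, 1351 and 1295 CPM in Huh7 and 2.62, 3.99 and 3.83 CPM in HCCLM3. FGB had 2144, 2121 and 2028 CPM in Huh7 and 1.24, 2.13 and 2.32 CPM in HCCLM3, and FGG means were 934 ± 29.8 CPM in Huh7 and 0.294 ± 0.171 CPM in HCCLM3 (SD, n = 3). These genes lie side by side on chromosome 4 and were 379.5-fold lower (FGA), 1101-fold lower (FGB) and 3148-fold lower (FGG) in HCCLM3. AHSG, the carrier fetuin-A, had 765, 804 and 941 CPM in Huh7 and 0.37, 0.385 and 0.327 CPM in HCCLM3. Transferrin (TF), which carries iron, had means of 2593 ± 175 CPM in Huh7 and 2.08 ± 1.34 CPM in HCCLM3 (SD, n = 3). TTR, which carries thyroid hormone and retinol binding protein, was 783-fold lower in HCCLM3 (log2 fold change -9.61 ± 0.10 SE, edgeR adjusted p = 7.33e-25). SERPINC1, or antithrombin, had 100.5, 109 and 114 CPM in Huh7 and 2 counts over the HCCLM3 libraries. SERPINA6, which binds cortisol, had 81.3, 84.5 and 90.7 CPM in Huh7 and was at least 2534-fold lower in HCCLM3. CP, the copper carrying ceruloplasmin, differed least among the members that passed, with 125 CPM in Huh7 and 31.4 CPM in HCCLM3.

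Apolipoproteins and the proteins that load or clear lipoproteins followed. Of 21 tested members, 18 were lower in HCCLM3, 17 by more than 2-fold (81%, beside 24.6% of all genes), and SCARB1 alone was higher. The members took 1.35, 1.38 and 1.39% of the counts of the Huh7 libraries and 0.105, 0.101 and 0.103% of those of the HCCLM3 libraries. APOA1, the main protein of high density lipoprotein, had 536, 547 and 573 CPM in Huh7 and 0.336, 0.14 and 0.262 CPM in HCCLM3 and was 2195-fold lower in HCCLM3 (log2 fold change -11.10 ± 0.08 SE, edgeR adjusted p = 5.14e-31). APOA2 had 1748, 1837 and 1789 CPM in Huh7 and 0.504, 0.35 and 0.294 CPM in HCCLM3. APOC3, an inhibitor of lipoprotein lipase, had 18.4, 18.8 and 24.7 CPM in Huh7, and no count in HCCLM3. APOB, the scaffold of low density lipoprotein, kept some expression, with 8419, 8533 and 8386 CPM in Huh7 and 54.4, 53.6 and 47.9 CPM in HCCLM3. It was 163-fold lower in HCCLM3 (log2 fold change -7.34 ± 0.04 SE, edgeR adjusted p = 1.04e-32). The HDL receptor SCARB1 had means of 318 ± 4.801 CPM in Huh7 and 513 ± 6.92 CPM in HCCLM3 (SD, n = 3). ANGPTL4 was among the 2 that did not pass.

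**Figure D2:**
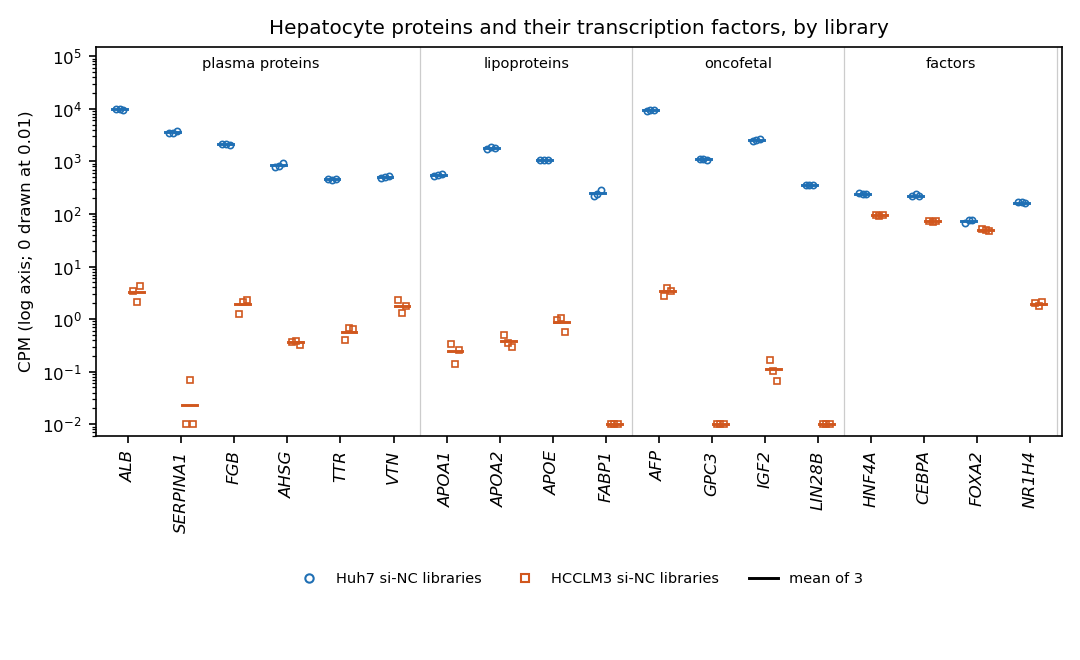
CPM in each si-NC library (y axis, log scale, 0 drawn at 0.01) for plasma proteins, lipoprotein genes, oncofetal genes and transcription factors; circles are the 3 Huh7 libraries, squares the 3 HCCLM3 libraries and lines their means. ALB had a mean of 9864 CPM in Huh7 and 3.24 CPM in HCCLM3, while HNF4A, CEBPA and FOXA2 had HCCLM3 means between 49.2 and 94.9 CPM.

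Complement and clotting genes were mostly lower in HCCLM3, with exceptions on the cell surface. Of 44 tested, 32 were lower in HCCLM3 and 8 higher, with 31 (70.5%) more than 2-fold lower and 6 (13.6%) more than 2-fold higher. Over all genes these shares were 24.6 and 23.1%. SERPING1, the C1 inhibitor, had 404, 404 and 447 CPM in Huh7 and no count in HCCLM3. MASP1, a protease of the lectin pathway, had 309, 293 and 314 CPM in Huh7 and was at least 9054-fold lower in HCCLM3 (edgeR adjusted p = 2.89e-11). CPB2, the inhibitor of clot lysis, had 79.6, 76.2 and 73.7 CPM in Huh7 and 2 counts over the HCCLM3 libraries. Clotting factors F7 and F10 and their relative PROZ, neighbours on chromosome 13, were 35.4-fold lower, 31.9-fold lower and 30.2-fold lower in HCCLM3. Among the 8 higher members were the membrane regulators that protect cells from complement. CD55 had 6.76, 6.94 and 6.07 CPM in Huh7 and 70.1, 73.2 and 64.4 CPM in HCCLM3 and was 10.5-fold higher in HCCLM3 (log2 fold change 3.39 ± 0.08 SE, edgeR adjusted p = 2.87e-22). CD59 had means of 48.5 ± 1.35 CPM in Huh7 and 201 ± 4.104 CPM in HCCLM3 (SD, n = 3), and the protease C1R had 5.12 CPM in Huh7 and 20.6 CPM in HCCLM3.

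Hepatocyte transcription factors differed by far less than the genes above. All 22 tested members passed, 17 lower and 5 higher in HCCLM3, with a median log2 fold change of -1.55. Beyond 2-fold, 13 (59.1%) were lower and 3 (13.6%) higher. HNF4A, a nuclear receptor that binds many liver promoters, had 247, 241 and 237 CPM in Huh7 and 94.7, 92.4 and 97.5 CPM in HCCLM3. The lines did not overlap, and HNF4A was 2.55-fold lower in HCCLM3 (log2 fold change -1.35 ± 0.04 SE, edgeR adjusted p = 4.5e-20). CEBPA had 218, 236 and 216 CPM in Huh7 and 73.3, 70.9 and 74.02 CPM in HCCLM3 and was 3.07-fold lower in HCCLM3 (log2 fold change -1.62 ± 0.07 SE, edgeR adjusted p = 2.61e-11). FOXA2, a factor that opens liver chromatin, had means of 73.6 ± 5.64 CPM in Huh7 and 49.2 ± 2.497 CPM in HCCLM3 (SD, n = 3).

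Some factors were at or near 0 in HCCLM3. KLF15, a regulator of amino acid and glucose use, had 18.1, 17.1 and 17.6 CPM in Huh7 and 2 counts over the HCCLM3 libraries (edgeR adjusted p = 1.8e-18). ONECUT1, also called HNF6, had 11.02, 12.4 and 12.2 CPM in Huh7 and 0.269, 0.315 and 0.229 CPM in HCCLM3. Higher in HCCLM3 were ATF5 (24.5 CPM in Huh7 and 61.1 CPM in HCCLM3) and CEBPB (27.2 CPM in Huh7 and 59.1 CPM in HCCLM3), CEBPB being a factor of the acute phase response. HNF4G also passed, but its value rested on 1 library. It had 22.4, 10.9 and 10.04 CPM in HCCLM3 against 5.58, 7.48 and 7.84 CPM in Huh7, and its edgeR adjusted p was 0.0472, against 0.0514 to 0.192 in the 9 alternative fits that lost the call.

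Nuclear receptors were divided almost evenly. Of 28 tested, 14 were lower in HCCLM3 and 12 higher, 9 in each direction by more than 2-fold (32.1%). NR1H4, the bile acid receptor FXR, had 169, 165 and 159 CPM in Huh7 and 1.98, 1.78 and 2.12 CPM in HCCLM3. It was 83.5-fold lower in HCCLM3 (log2 fold change -6.38 ± 0.08 SE, edgeR adjusted p = 3.18e-27). NR0B2 (SHP), a corepressor that FXR induces, had 6.99, 6.31 and 9.28 CPM in Huh7 and 0.942, 0.595 and 1.11 CPM in HCCLM3 and was 8.45-fold lower in HCCLM3. NR2F1, an orphan receptor, was 7.85-fold lower in HCCLM3. Among the higher members were receptors for vitamins A and D. RARG, a retinoic acid receptor, had 0.557, 1.001 and 1.25 CPM in Huh7 and 24.8, 25.4 and 23.1 CPM in HCCLM3, and VDR, the vitamin D receptor, had 0.518 CPM in Huh7 and 9.21 CPM in HCCLM3.

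The promoters of 5 genes that separate the lines are shown for orientation. They were picked after the values were seen, from RefSeq (GRCh38.p14), and run from 250 bases before to 50 after the RefSeq start of each gene. ALB, FGA and AHSG stand for the plasma proteins that were high in Huh7. ANXA10, an annexin (0.0445 CPM in Huh7 and 292 CPM in HCCLM3), and MMP7, a matrix protease, stand for genes that were high in HCCLM3. Capitals mark matches, on either strand, to 5 short motifs: HNF1 (GTTAATNAT), HNF4 (CAAAGTCCA), C/EBP (TTNNGCAA), AP-1 (TGANTCA) and TEAD (GGAATGT).
ALB, chr4:73404037-73404336, plus strand: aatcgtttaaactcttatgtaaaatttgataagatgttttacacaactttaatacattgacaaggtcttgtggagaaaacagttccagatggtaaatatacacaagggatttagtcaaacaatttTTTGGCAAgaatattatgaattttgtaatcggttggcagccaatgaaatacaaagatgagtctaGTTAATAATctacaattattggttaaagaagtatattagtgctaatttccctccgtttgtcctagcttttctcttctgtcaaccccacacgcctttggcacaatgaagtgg
FGA, chr4:154590693-154590992, minus strand: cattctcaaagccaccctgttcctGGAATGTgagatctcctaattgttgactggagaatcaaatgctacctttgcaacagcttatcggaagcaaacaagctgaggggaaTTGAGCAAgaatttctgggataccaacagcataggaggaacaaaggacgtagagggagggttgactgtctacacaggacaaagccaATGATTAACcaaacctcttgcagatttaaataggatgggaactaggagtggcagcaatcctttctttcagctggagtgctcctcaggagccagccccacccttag
AHSG, chr3:186612810-186613109, plus strand: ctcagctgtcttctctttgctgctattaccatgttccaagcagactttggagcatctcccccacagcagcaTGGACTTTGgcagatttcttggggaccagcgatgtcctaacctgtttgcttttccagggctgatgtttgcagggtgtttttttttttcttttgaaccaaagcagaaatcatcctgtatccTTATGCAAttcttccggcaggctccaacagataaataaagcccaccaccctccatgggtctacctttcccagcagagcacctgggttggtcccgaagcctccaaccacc
ANXA10, chr4:168092287-168092586, plus strand: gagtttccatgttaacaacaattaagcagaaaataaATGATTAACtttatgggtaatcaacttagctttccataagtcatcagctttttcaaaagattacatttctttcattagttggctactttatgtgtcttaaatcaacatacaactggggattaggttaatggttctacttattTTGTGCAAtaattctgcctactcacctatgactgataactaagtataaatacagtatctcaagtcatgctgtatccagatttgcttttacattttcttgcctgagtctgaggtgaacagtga
MMP7, chr11:102530698-102530997, minus strand: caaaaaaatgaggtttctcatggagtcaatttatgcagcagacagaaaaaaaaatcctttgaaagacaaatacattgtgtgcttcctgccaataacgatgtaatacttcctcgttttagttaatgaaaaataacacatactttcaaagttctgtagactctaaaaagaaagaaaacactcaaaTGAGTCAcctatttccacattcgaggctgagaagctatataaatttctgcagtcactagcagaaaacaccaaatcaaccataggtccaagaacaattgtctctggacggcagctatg
The capitals in ALB are an HNF1 and a C/EBP match, those in FGA a TEAD, a C/EBP and an HNF1 match, and those in AHSG an HNF4 and a C/EBP match. ANXA10, which Huh7 hardly expressed, also holds an HNF1 and a C/EBP match. MMP7 holds an AP-1 match. A match is a string of letters and not a bound site.

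Over sets of promoters, the same motifs were counted in windows of the same length. Of the 29 plasma protein genes more than 8-fold lower in HCCLM3, 22 had a promoter in the table. Among these 22, 2 held an HNF1 match (9.09%), 1 an HNF4 match (4.55%), 7 a C/EBP match (31.8%), 3 a TEAD match (13.6%) and none an AP-1 match. Over all 34961 promoters of the table the shares were 0.792, 0.386, 10.4, 3.47 and 7.68%. Over 11092 promoters of tested genes they were 0.487, 0.379, 7.27, 2.27 and 4.85%. The plasma protein promoters were also poor in CpG, with a median ratio of observed to expected CpG of 0.213 against 0.823 in promoters of tested genes. The broader sets differed less. Of the genes on only in Huh7, 243 of 336 had a promoter, and 0.823% held an HNF1 match, 7.82% a C/EBP match and 7% an AP-1 match. Of those on only in HCCLM3, 129 of 182 had one, with 2.33, 13.2 and 8.53%. The HNF1 shares rest on 2 promoters of the Huh7 set and 3 of the HCCLM3 set. An HNF4 match was held by 2 and 0 promoters, and a TEAD match by 3.29 and 3.1%. These shares are descriptions and were not tested.

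Genes of the fetal liver and of liver progenitors were mostly higher in Huh7. All 28 tested members passed, 19 lower in HCCLM3 and 9 higher, with 18 (64.3%) more than 2-fold lower and 13 more than 8-fold lower. AFP, alpha-fetoprotein, had 9236, 9337 and 9448 CPM in Huh7 and 2.76, 3.85 and 3.43 CPM in HCCLM3 and was 2792-fold lower in HCCLM3 (log2 fold change -11.45 ± 0.06 SE, edgeR adjusted p = 1.23e-33). IGF2, a growth factor of the fetus, had 2447, 2510 and 2684 CPM in Huh7 and 0.168, 0.105 and 0.0654 CPM in HCCLM3. PROM1, or CD133, had 119, 116 and 109.5 CPM in Huh7 and no count in HCCLM3. The epithelial adhesion molecule EPCAM had 29.3, 29.8 and 28.2 CPM in Huh7 and 0.504, 0.28 and 0.229 CPM in HCCLM3, and the biliary keratin KRT19 was 93.6-fold lower in HCCLM3 (log2 fold change -6.55 ± 0.10 SE, edgeR adjusted p = 1.23e-20). IGF2BP1, which binds and stabilises mRNA in fetal cells, differed less, with 659, 671 and 628 CPM in Huh7 and 147, 150.2 and 142 CPM in HCCLM3. Higher in HCCLM3 were the cancer-testis gene MAGEA3 (57, 53.2 and 58.1 CPM in HCCLM3, none in Huh7), the biliary keratin KRT7 (at least 168-fold higher in HCCLM3) and the stem cell factor SOX2 (0.396 CPM in Huh7 and 24.5 CPM in HCCLM3). CD44, the hyaluronan receptor, had 7.21, 6.74 and 5.87 CPM in Huh7 and 318, 340.5 and 314 CPM in HCCLM3 and was 49.02-fold higher in HCCLM3 (log2 fold change 5.62 ± 0.06 SE, edgeR adjusted p = 4.38e-28).

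Drug metabolism genes went both ways. Of 56 tested cytochromes P450 and conjugating enzymes, 27 were lower in HCCLM3 and 23 higher, with 24 (42.9%) and 18 (32.1%) beyond 2-fold. The sulfotransferase SULT2A1, which acts on steroids, had 100.1, 99.6 and 87.4 CPM in Huh7, and the glucuronosyltransferase UGT2B4 had 90.03, 89.9 and 90.7 CPM in Huh7. Neither had a count in HCCLM3. Conversely ALDH3A1, an aldehyde dehydrogenase, had 0.951, 0.835 and 1.28 CPM in Huh7 and 585, 565 and 602 CPM in HCCLM3 and was 569-fold higher in HCCLM3 (log2 fold change 9.15 ± 0.11 SE, edgeR adjusted p = 1.95e-19). CYP24A1, which breaks down vitamin D, had 0.295, 0.134 and 0.328 CPM in Huh7 and 92.2, 93.2 and 91.4 CPM in HCCLM3. CYP4F11, a fatty acid hydroxylase, was 158-fold higher in HCCLM3 (log2 fold change 7.31 ± 0.10 SE, edgeR adjusted p = 2.94e-26), and the carboxylesterase CES1 was 51.3-fold higher in HCCLM3. UGT, SULT and GST genes are families of close relatives whose reads the counting could divide between members.

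Among 32 genes of bile acid synthesis and hepatic transport, 22 were lower in HCCLM3 and 10 higher. Beyond 2-fold, 20 (62.5%) were lower and 9 (28.1%) higher, beside 24.6 and 23.1% of all genes. FGF19, a hormone that restrains bile acid synthesis, had 117, 108 and 103 CPM in Huh7 and no count in HCCLM3. Its receptor FGFR4 had 321, 315 and 319.6 CPM in Huh7 and 27.9, 25.7 and 32.3 CPM in HCCLM3, 11.1-fold lower in HCCLM3 (log2 fold change -3.47 ± 0.06 SE, edgeR adjusted p = 1.96e-20). KLB, the coreceptor that FGFR4 needs, was 99.97-fold lower in HCCLM3 (log2 fold change -6.64 ± 0.07 SE, edgeR adjusted p = 5.98e-28). The ligand, the receptor and the coreceptor were thus all lower in HCCLM3. Of the transporters, SLC22A9 had 69.7, 70.3 and 75.8 CPM in Huh7 and none in HCCLM3, and the sterol exporter ABCG8 was at least 164-fold lower in HCCLM3. Some enzymes that modify bile acids were higher in HCCLM3. BAAT, which joins bile acids to glycine or taurine, had 1.05, 0.768 and 0.492 CPM in Huh7 and 28.2, 25.9 and 25.2 CPM in HCCLM3. HSD3B7, which acts on the sterol ring, had 6.17 CPM in Huh7 and 87.8 CPM in HCCLM3, and SLC27A5, which activates bile acids, 0.506 CPM in Huh7 and 5.24 CPM in HCCLM3.

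Urea cycle and amino acid breakdown were lower in HCCLM3 for 33 of 49 tested genes, 26 of them (53.1%) by more than 2-fold, and higher for 12, of which 5 (10.2%) beyond 2-fold. CPS1, the first enzyme of the cycle, had 6.26, 6.88 and 6.56 CPM in Huh7 and no count in HCCLM3. ARG1, the last, had means of 94.3 ± 22.2 CPM in Huh7 and 0.0675 ± 0.00231 CPM in HCCLM3 (SD, n = 3). HAAO, a step from tryptophan to NAD, and the glyoxylate enzymes AGXT and AGXT2 had 7.47 to 11.1 CPM in Huh7 and no count in HCCLM3. KYNU and TDO2, also of tryptophan breakdown, were higher in HCCLM3. KYNU had 8.27, 7.44 and 8.46 CPM in Huh7 and 179, 188 and 180.5 CPM in HCCLM3 and was 22.6-fold higher in HCCLM3 (log2 fold change 4.50 ± 0.06 SE, edgeR adjusted p = 1.51e-26). TDO2 had 1.88 CPM in Huh7 and 6.94 CPM in HCCLM3, and the hydroxyproline dehydrogenase PRODH2 0.208 CPM in Huh7 and 5.28 CPM in HCCLM3.

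Genes of glucose metabolism went both ways. Of 44 tested genes, 21 were lower in HCCLM3 and 18 higher, with 13 (29.5%) and 10 (22.7%) beyond 2-fold. Over all genes these shares were 24.6 and 23.1%. Hexokinase 2 (HK2) had 109, 114 and 124 CPM in Huh7 and 1.24, 1.57 and 1.05 CPM in HCCLM3 and was 89.9-fold lower in HCCLM3 (log2 fold change -6.49 ± 0.10 SE, edgeR adjusted p = 4.2e-23). Hexokinase 1 (HK1) went the other way, with 7.28, 8.11 and 8.56 CPM in Huh7 and 179, 178 and 181 CPM in HCCLM3, 22.4-fold higher in HCCLM3 (log2 fold change 4.49 ± 0.06 SE, edgeR adjusted p = 6.83e-27). The platelet phosphofructokinase PFKP had 0.262, 0 and 0.426 CPM in Huh7 and 212, 213 and 211 CPM in HCCLM3. LDHB, the lactate dehydrogenase subunit of oxidative tissues, had 2.85, 2.67 and 1.71 CPM in Huh7 and 1019, 1102 and 1078 CPM in HCCLM3 and was 442-fold higher in HCCLM3 (log2 fold change 8.79 ± 0.10 SE, edgeR adjusted p = 3.81e-18), while LDHA did not pass. PC, which feeds oxaloacetate into gluconeogenesis, and PYGL, the liver glycogen phosphorylase, were 8.07-fold lower and 9.24-fold lower in HCCLM3.

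Cholesterol synthesis stood lower in HCCLM3 along the pathway. Of 24 genes, all tested, 19 were lower, 14 of them (58.3%) by more than 2-fold, 4 were higher, 2 of these (8.33%) beyond 2-fold, and FDPS did not pass. The list took 0.676, 0.674 and 0.697% of the counts of the Huh7 libraries and 0.283, 0.279 and 0.279% of those of the HCCLM3 libraries. HMGCS1, which makes the precursor of mevalonate, had 1368, 1362 and 1426 CPM in Huh7 and 119, 119 and 108 CPM in HCCLM3 and was 12.01-fold lower in HCCLM3 (log2 fold change -3.59 ± 0.05 SE, edgeR adjusted p = 7.4e-26). MVD had 129.6 CPM in Huh7 and 22 CPM in HCCLM3, and TM7SF2 29.6 CPM in Huh7 and 4.07 CPM in HCCLM3. PMVK, INSIG2 and NSDHL were 2.25-fold higher, 2.11-fold higher and 1.75-fold higher in HCCLM3.

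Fatty acid synthesis and storage were lower for 19 of 29 tested genes and higher for 8. Beyond 2-fold, 12 (41.4%) were lower and 2 (6.9%) higher, beside 24.6 and 23.1% of all genes. FABP1, the liver fatty acid binding protein, had 216, 237 and 288 CPM in Huh7 and ELOVL2, which elongates polyunsaturated fatty acids, 108, 96.01 and 102 CPM in Huh7. Neither had a count in HCCLM3. The lipid droplet protein CIDEB was 55.7-fold lower in HCCLM3, and its relative CIDEC 9.49-fold higher in HCCLM3. Among genes of fatty acid oxidation, 27 of 39 tested were lower in HCCLM3 and 9 higher. Beyond 2-fold, 15 (38.5%) were lower and 4 (10.3%) higher. CPT1A, which admits fatty acids to mitochondria, was among the higher, with 8.59, 8.55 and 13.3 CPM in Huh7 and 144, 138 and 148 CPM in HCCLM3, 14.1-fold higher in HCCLM3 (log2 fold change 3.82 ± 0.13 SE, edgeR adjusted p = 5.07e-10). ACSL1 and ACSL5, which activate fatty acids, had 41.7 CPM in Huh7 and 211 CPM in HCCLM3, and 8.997 CPM in Huh7 and 85.7 CPM in HCCLM3, respectively. ACADSB, of branched-chain breakdown, had 215 CPM in Huh7 and 17.96 CPM in HCCLM3, and ACOX2, a peroxisomal oxidase of bile acid precursors, 13.3 CPM in Huh7 and 2.43 CPM in HCCLM3.

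Respiratory chain genes moved little. Of 44 nuclear-encoded subunits tested, 24 were lower and 18 higher, but only 4 and 5 by more than 2-fold (9.09 and 11.4%, against 24.6 and 23.1% of all genes). NDUFV1, of complex I, was the furthest down (278 CPM in Huh7 and 69.5 CPM in HCCLM3, 4.004-fold lower in HCCLM3), and CYC1, of complex III, the furthest up (71.8 CPM in Huh7 and 189 CPM in HCCLM3, 2.64-fold higher in HCCLM3). Mitochondrially encoded genes took 9.53, 9.37 and 8.9% of the counts of the Huh7 libraries and 7.24, 7.61 and 7.42% of those of the HCCLM3 libraries. Of 13 tested, 9 were lower in HCCLM3, 2 of them (15.4%) beyond 2-fold, and none higher. MT-ND5 had 6508, 6407 and 6135 CPM in Huh7 and 2987, 3026 and 3041 CPM in HCCLM3 and was 2.104-fold lower in HCCLM3 (log2 fold change -1.07 ± 0.07 SE, edgeR adjusted p = 2.33e-07). In FPKM, a level per length, the highest genes were MT-CO1, MT-ATP6 and MT-CO3 in Huh7 (means of 11930, 11850 and 10930 FPKM) and FTL, MT-CO2 and MT-CO1 in HCCLM3 (12670, 10890 and 9456 FPKM). MT-CO2 did not differ beyond its spread (log2 fold change 0.04 ± 0.08 SE, edgeR adjusted p = 0.615).

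**Figure D3:**
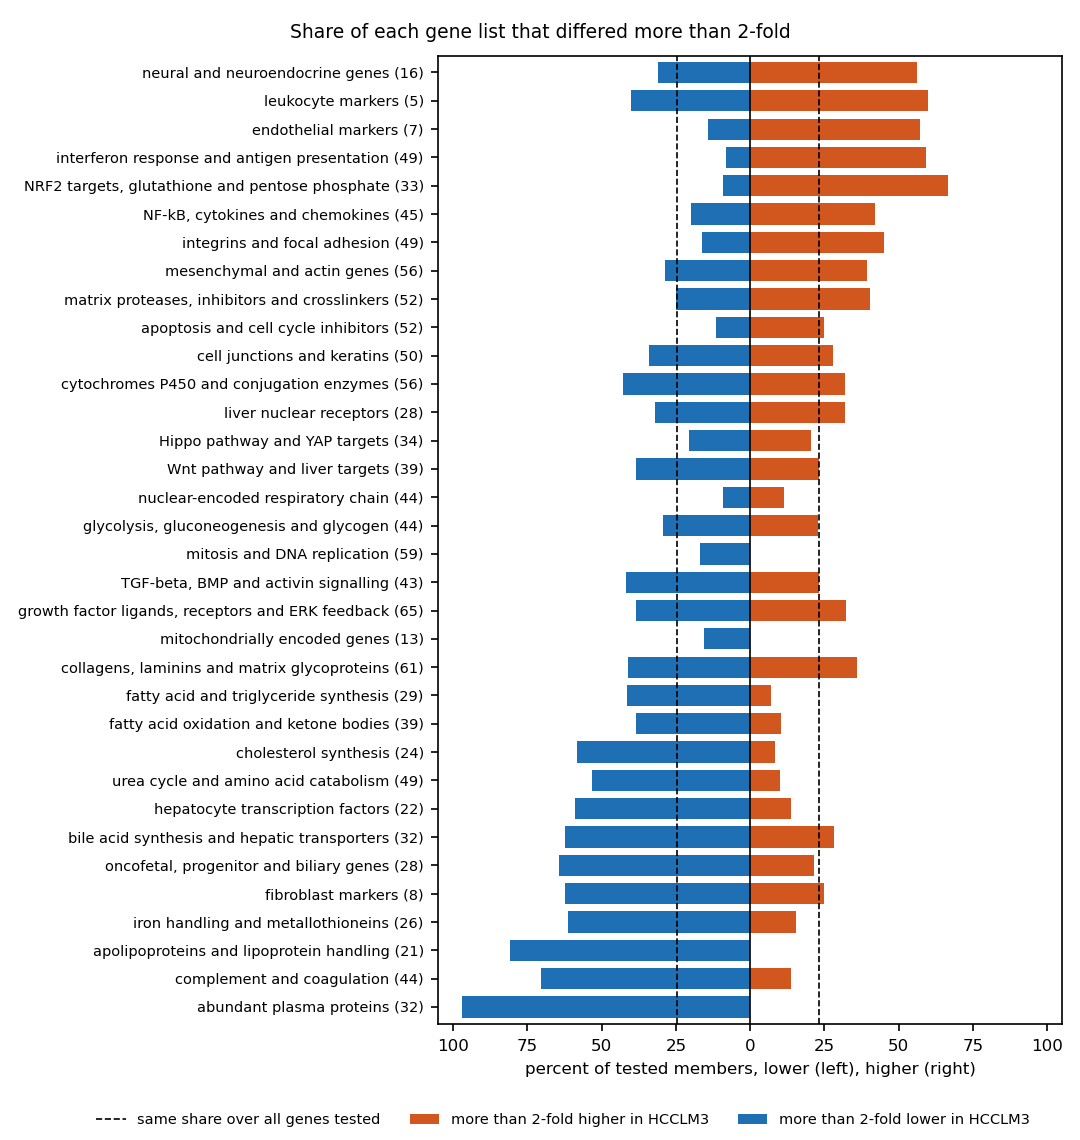
Share of the tested members of each of 34 gene lists (number tested in brackets) that were called and more than 2-fold lower (blue, to the left) or higher (orange, to the right) in HCCLM3, in percent, ordered by median log2 fold change; dashed lines mark the shares over all genes, 24.6% and 23.1%. Plasma proteins stand at the lower end with 96.9% lower, and NRF2 targets reach 66.7% higher.

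The NRF2 list was the metabolic group that stood highest in HCCLM3. NRF2 (gene NFE2L2) is a factor that turns on antioxidant enzymes, and KEAP1 marks it for degradation. Of 33 members, all tested, 28 were higher in HCCLM3 and 4 lower, with 22 (66.7%) more than 2-fold higher, against 23.1% of all genes. The median log2 fold change was 1.43, and the list took 1.79, 1.78 and 1.74% of the counts of the Huh7 libraries and 4.18, 4.18 and 4.24% of those of the HCCLM3 libraries. The aldo-keto reductase AKR1B10 had 59.6, 51.7 and 50.2 CPM in Huh7 and 3406, 3359 and 3486 CPM in HCCLM3 and was 63.5-fold higher in HCCLM3 (log2 fold change 5.99 ± 0.06 SE, edgeR adjusted p = 6.78e-21). Another reductase, AKR1C3, had 6.199, 6.01 and 6.92 CPM in Huh7 and 308, 290.3 and 314 CPM in HCCLM3; the AKR1C genes are close copies of one another, so their split is uncertain. Thioredoxin reductase TXNRD1 was 4.35-fold higher in HCCLM3, and the carbonyl reductase CBR3 103-fold higher in HCCLM3. NFE2L2 itself was lower, with 454, 429.5 and 414 CPM in Huh7 and 168, 169.6 and 168 CPM in HCCLM3. KEAP1 was lower too, with 68.5, 63.7 and 64.6 CPM in Huh7 and 11.7, 9.31 and 11.02 CPM in HCCLM3, 6.14-fold lower in HCCLM3 (log2 fold change -2.62 ± 0.07 SE, edgeR adjusted p = 9.97e-21). The secreted peroxidase GPX3 had 186 CPM in Huh7 and 18.7 CPM in HCCLM3. The fourth lower member, GSS, was 1.13-fold lower in HCCLM3.

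Iron handling and metallothioneins were lower in HCCLM3 for 19 of 26 tested genes and higher for 7. Beyond 2-fold, 16 (61.5%) were lower and 4 (15.4%) higher, beside 24.6 and 23.1% of all genes. Metallothioneins bind zinc and copper. MT1E had 68.5, 78.01 and 59.5 CPM in Huh7 and MT1F 30.8, 29.7 and 25.1 CPM in Huh7, with no count of either in HCCLM3. MT2A had 125, 126 and 118 CPM in Huh7 and 6.02, 5.46 and 4.54 CPM in HCCLM3 and was 23.1-fold lower in HCCLM3 (log2 fold change -4.53 ± 0.19 SE, edgeR adjusted p = 1.15e-08). The metallothioneins are near-identical copies on chromosome 16, so reads may have been divided among them, though all 7 that lie next to each other were lower. Ferritin light chain FTL, which stores iron, had 5287, 5555 and 5075 CPM in Huh7 and 12080, 12690 and 12830 CPM in HCCLM3 and was 2.36-fold higher in HCCLM3 (log2 fold change 1.24 ± 0.04 SE, edgeR adjusted p = 8.18e-16). BMP6, which induces the iron hormone hepcidin, had 20.4, 20.2 and 21.6 CPM in HCCLM3 and 3 counts over the Huh7 libraries. The metal importer SLC11A2 had 69.7 CPM in Huh7 and 149 CPM in HCCLM3.

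Matrix genes were strongly different in both directions. Among 61 tested collagens, laminins and glycoproteins, 30 were lower in HCCLM3 and 26 higher, with 25 (41.0%) and 22 (36.1%) beyond 2-fold. Fibronectin (FN1) was the most counted matrix gene in both lines, with 6742, 6669 and 7106 CPM in Huh7 and 2863, 2921 and 3094 CPM in HCCLM3. It was 2.31-fold lower in HCCLM3 (log2 fold change -1.21 ± 0.03 SE, edgeR adjusted p = 1.35e-20). COL2A1, the collagen of cartilage, had 168, 178 and 176 CPM in Huh7, COL1A2, of fibrillar collagen, 21.8, 24.5 and 27.1 CPM in Huh7, and neither had a count in HCCLM3. THBS4, a thrombospondin, had 116 CPM in Huh7 and 0.0545 CPM in HCCLM3. Higher in HCCLM3 were chains of laminin-332, the anchor of epithelia to basement membrane. LAMB3 had 0.262, 0.234 and 0.295 CPM in Huh7 and 202, 209 and 198 CPM in HCCLM3 and was 757-fold higher in HCCLM3 (log2 fold change 9.56 ± 0.11 SE, edgeR adjusted p = 1.06e-27). LAMA3 had means of 1.37 ± 0.0598 CPM in Huh7 and 317 ± 13.8 CPM in HCCLM3 (SD, n = 3). COL6A3, of beaded filament collagen, was 278-fold higher in HCCLM3.

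Proteases and their inhibitors leaned to HCCLM3. Of 52 tested, 29 were higher and 17 lower, with 21 (40.4%) more than 2-fold higher and 13 (25%) lower. Over all genes these shares were 23.1 and 24.6%. Matrilysin (MMP7) had 96.5, 103 and 93.9 CPM in HCCLM3 and interstitial collagenase (MMP1) 80.7, 87.8 and 78.3 CPM in HCCLM3. Neither had a count in Huh7, so they were at least 2965-fold higher and at least 2491-fold higher in HCCLM3. ADAM12 was at least 342-fold higher in HCCLM3 (edgeR adjusted p = 6.93e-17). Huh7 instead had the membrane protease MMP16 (36.5, 34.1 and 34.5 CPM in Huh7), ADAMTS9 (19.5, 21.5 and 20.3 CPM in Huh7) and the collagen crosslinker LOX (70.02, 65.1 and 90.9 CPM in Huh7 and 1.41, 2.41 and 1.96 CPM in HCCLM3). The inhibitors TIMP1 and TIMP2 were 25.6-fold higher and 14.1-fold higher in HCCLM3 as well.

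Integrins and focal adhesion genes were higher in HCCLM3 for 30 of 49 tested and lower for 15. More than 2-fold higher were 22 (44.9%) and lower 8 (16.3%), beside 23.1 and 24.6% of all genes. The list took 0.423, 0.425 and 0.434% of the counts of the Huh7 libraries and 1.74, 1.74 and 1.71% of those of the HCCLM3 libraries, mostly from 2 caveolins. Caveolins form membrane pits called caveolae. CAV1 had 3.12, 2.904 and 4.197 CPM in Huh7 and 3908, 3937 and 3867 CPM in HCCLM3 and was 1144-fold higher in HCCLM3 (log2 fold change 10.16 ± 0.11 SE, edgeR adjusted p = 2.36e-16). CAV2 had 16.1, 15.7 and 14.7 CPM in Huh7 and 6814, 7012 and 6767 CPM in HCCLM3, and was 443-fold higher in HCCLM3 (log2 fold change 8.79 ± 0.05 SE, edgeR adjusted p = 3.51e-33). The laminin receptor chains ITGA3 and ITGB4 had means of 7.54 ± 0.252 CPM in Huh7 and 297 ± 10.8 CPM in HCCLM3, and 1.11 ± 0.0534 CPM in Huh7 and 195 ± 1.15 CPM in HCCLM3 (SD, n = 3). L1CAM, an adhesion molecule of nerve cells, was 612-fold higher in HCCLM3, with a counting interval of 169 to 5062. Lower in HCCLM3 were the syndecan SDC2 (120, 119.8 and 119 CPM in Huh7 and 0, 0.14 and 0.0654 CPM in HCCLM3), the laminin receptor BCAM (204 CPM in Huh7 and 3.71 CPM in HCCLM3) and MCAM (17.1 CPM in Huh7 and 0.52 CPM in HCCLM3).

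**Figure D4:**
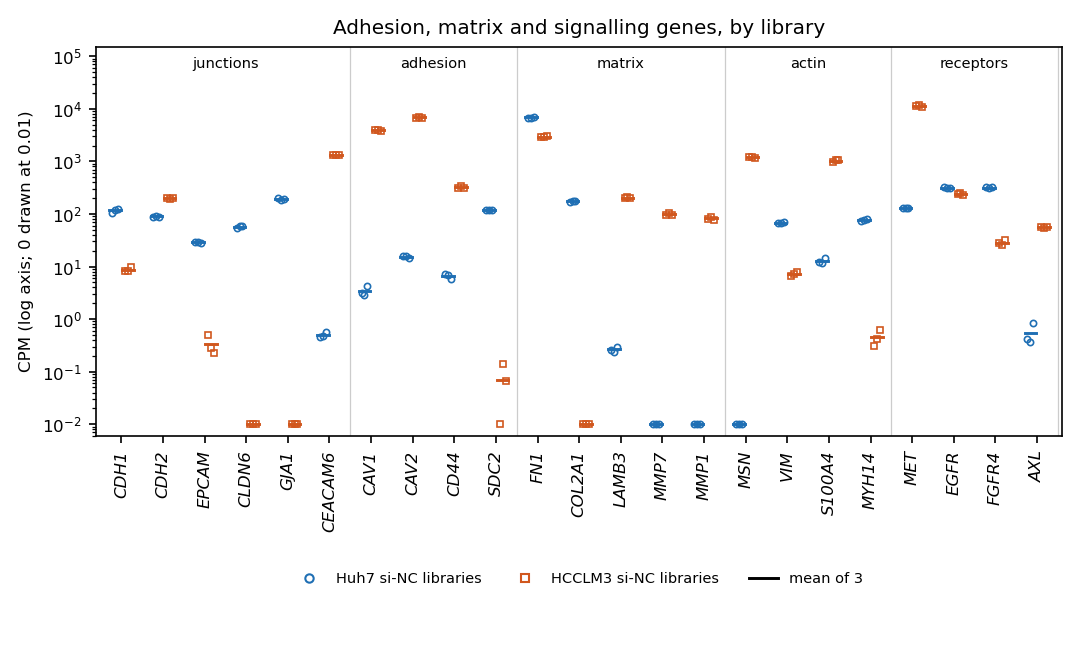
CPM in each si-NC library (y axis, log scale, 0 drawn at 0.01) for junction, adhesion, matrix, actin and receptor genes; circles are the 3 Huh7 libraries, squares the 3 HCCLM3 libraries and lines their means. CAV1, CAV2, CEACAM6, MSN and MET are higher in HCCLM3, while CDH1, EPCAM, CLDN6, GJA1 and VIM are higher in Huh7.

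Junction genes and keratins divided evenly in the number called, 25 higher and 24 lower of 50 tested. Their median log2 fold change was 0.02 (-0.0006 with upper quartile factors). Beyond 2-fold, 17 (34%) were lower and 14 (28%) higher, beside 24.6 and 23.1% of all genes. The largest differences were less even, with 14 of the 50 more than 8-fold lower and 6 higher. Over all genes the shares beyond 8-fold were 11.7 and 8.96%. E-cadherin (CDH1), which joins epithelial cells, had 104.9, 119 and 126 CPM in Huh7 and 8.07, 8.29 and 9.58 CPM in HCCLM3 and was 13.4-fold lower in HCCLM3 (log2 fold change -3.75 ± 0.07 SE, edgeR adjusted p = 3.96e-22). N-cadherin (CDH2), found in hepatocytes and mesenchyme, had 88.9, 92.2 and 87.5 CPM in Huh7 and 201, 196 and 199 CPM in HCCLM3, 2.22-fold higher in HCCLM3 (log2 fold change 1.15 ± 0.04 SE, edgeR adjusted p = 1.7e-18). The tight junction protein CLDN6 had 55, 57.99 and 59.3 CPM in Huh7, the gap junction protein GJA1 197, 188 and 193 CPM in Huh7 and the apical transport protein MAL2 226, 223 and 207.1 CPM in Huh7. HCCLM3 had no count of any of these 3. CEACAM6, a surface glycoprotein of gut and other carcinomas, had 0.459, 0.467 and 0.557 CPM in Huh7 and 1345, 1349 and 1295 CPM in HCCLM3 and was 2665-fold higher in HCCLM3 (log2 fold change 11.38 ± 0.12 SE, edgeR adjusted p = 9.87e-19). The keratin KRT80 was at least 593-fold higher in HCCLM3, and envoplakin (EVPL), of the cornified envelope, 36.5-fold higher in HCCLM3.

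Mesenchymal and actin genes did not move as 1 block. Of 56 tested, 35 were higher in HCCLM3 and 20 lower. Beyond 2-fold, 16 (28.6%) were lower and 22 (39.3%) higher. The list took 1.37, 1.38 and 1.39% of the counts of the Huh7 libraries and 2.91, 2.92 and 2.88% of those of the HCCLM3 libraries. Vimentin (VIM), the intermediate filament of mesenchyme, was lower in HCCLM3, with 68.2, 66.8 and 70.1 CPM in Huh7 and 6.49, 7.17 and 7.81 CPM in HCCLM3, 9.54-fold lower in HCCLM3 (log2 fold change -3.25 ± 0.07 SE, edgeR adjusted p = 2.5e-22). So were the factor TCF4 (40.9 CPM in Huh7 and 0.32 CPM in HCCLM3) and the myosin MYH14 (74.97, 77.6 and 81.05 CPM in Huh7 and 0.303, 0.42 and 0.621 CPM in HCCLM3). Higher in HCCLM3, besides MSN, were several S100 proteins. S100A4, a calcium binding protein studied in metastasis, had 12, 11.5 and 14.8 CPM in Huh7 and 989.7, 1044 and 1049 CPM in HCCLM3 and was 80.5-fold higher in HCCLM3 (log2 fold change 6.33 ± 0.12 SE, edgeR adjusted p = 5.96e-12). S100A6 had 28.96, 26.6 and 29.8 CPM in Huh7 and 859.9, 979 and 961 CPM in HCCLM3. LGALS4, an intestinal galectin, was 390-fold higher in HCCLM3 (log2 fold change 8.61 ± 0.10 SE, edgeR adjusted p = 6.83e-27). Tropomyosin 4 (TPM4), which stiffens actin filaments, had 133, 139 and 145 CPM in Huh7 and 296, 309 and 306 CPM in HCCLM3 and was 2.18-fold higher in HCCLM3 (log2 fold change 1.13 ± 0.04 SE, edgeR adjusted p = 2.97e-18). YBX1, an RNA binding protein, had 1376 CPM in Huh7 and 757 CPM in HCCLM3, and ASH2L, the host gene of circASH2, 76.5 CPM in Huh7 and 32.4 CPM in HCCLM3.

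Growth factor genes were lower in HCCLM3 for 38 of 65 tested and higher for 25, with 25 (38.5%) and 21 (32.3%) beyond 2-fold. Over all genes these shares were 24.6 and 23.1%. The receptor MET was among the most counted genes of HCCLM3. It had 128, 128 and 129 CPM in Huh7 and 11240, 11730 and 10660 CPM in HCCLM3, and it was 87.5-fold higher in HCCLM3 (log2 fold change 6.45 ± 0.04 SE, edgeR adjusted p = 1.17e-32). Per length its means were 17.3 FPKM in Huh7 and 1525 FPKM in HCCLM3. Its ligand HGF had at most 0.294 CPM in any library. The EGF receptor (EGFR) differed little, with 317 ± 5.27 CPM in Huh7 and 236 ± 9.61 CPM in HCCLM3 (SD, n = 3), while its ligand EREG had 0.0656, 0 and 0.295 CPM in Huh7 and 179, 184 and 166 CPM in HCCLM3 and was 1406-fold higher in HCCLM3 (log2 fold change 10.46 ± 0.19 SE, edgeR adjusted p = 1.49e-15). The receptors FGFR1 and ERBB3 were 26.2-fold lower and 8.47-fold lower in HCCLM3. PDGFC, a ligand for stromal receptors, had 17.7, 17.8 and 17.4 CPM in Huh7 and none in HCCLM3. The ephrin EFNB1 and the VEGF receptor KDR had no count in Huh7 and 36.1 and 10.8 CPM in HCCLM3.

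In the Wnt list, 20 of 39 tested genes were lower in HCCLM3 and 19 higher. Beyond 2-fold, 15 (38.5%) were lower and 9 (23.1%) higher, beside 24.6 and 23.1% of all genes. The ligands WNT5A and WNT7B were on in HCCLM3, with 35.5, 34.1 and 34.3 CPM in HCCLM3 for WNT5A, and 35.1, 34.8 and 30.8 CPM in HCCLM3 for WNT7B. AXIN2, a feedback gene that beta-catenin turns on, had 4.001, 3.64 and 4.46 CPM in Huh7 and 93.3, 92.7 and 91.5 CPM in HCCLM3 and was 22.9-fold higher in HCCLM3 (log2 fold change 4.52 ± 0.07 SE, edgeR adjusted p = 1.79e-25). GLUL, a beta-catenin target in liver, went the other way with 454 CPM in Huh7 and 111 CPM in HCCLM3. The receptor FZD4 had 118 CPM in Huh7 and 26.9 CPM in HCCLM3, and the factor TCF7L1 11.9 CPM in Huh7 and 0.948 CPM in HCCLM3.

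TGF-beta, BMP and activin genes were lower for 27 of 43 tested and higher for 12. Beyond 2-fold, 18 (41.9%) were lower and 10 (23.3%) higher, beside 24.6 and 23.1% of all genes. Follistatin (FST), which traps activin, had 236, 242 and 225 CPM in Huh7 and 0.404, 0.21 and 0.392 CPM in HCCLM3 and was 686-fold lower in HCCLM3 (log2 fold change -9.42 ± 0.10 SE, edgeR adjusted p = 1.17e-28). INHBB, a subunit of activin, went the opposite way, with 0.754, 1.102 and 1.05 CPM in Huh7 and 86.9, 85.7 and 90.3 CPM in HCCLM3, 90.2-fold higher in HCCLM3 (log2 fold change 6.49 ± 0.09 SE, edgeR adjusted p = 1.92e-26). LTBP4, which stores TGF-beta in matrix, had 0.857 CPM in Huh7 and 49.1 CPM in HCCLM3. CHRD, an antagonist of BMP, had 12.1, 10.5 and 13.2 CPM in Huh7 and none in HCCLM3, and ID4, a BMP target, was 104-fold lower in HCCLM3. In the Hippo list 15 of 34 tested were lower and 14 higher. Beyond 2-fold, 7 (20.6%) were lower and 7 (20.6%) higher, beside 24.6 and 23.1% of all genes. The coactivator YAP1 had 112, 104 and 104 CPM in Huh7 and 136, 136 and 136 CPM in HCCLM3, 1.28-fold higher in HCCLM3 (log2 fold change 0.35 ± 0.04 SE, edgeR adjusted p = 2.62e-08). In the si-circASH2 libraries it did not pass (log2 fold change -0.0138, edgeR adjusted p = 0.759). Of its targets, CTGF was 9.25-fold lower in HCCLM3 (log2 fold change -3.21 ± 0.06 SE, edgeR adjusted p = 7.36e-24), MYOF 43.6-fold higher in HCCLM3 (log2 fold change 5.45 ± 0.06 SE, edgeR adjusted p = 2.13e-28) and the receptor AXL 99.8-fold higher in HCCLM3. DLC1, a GTPase activating protein, had 72.3, 66.6 and 68.98 CPM in Huh7 and no count in HCCLM3.

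Cytokine and NF-kB genes were higher for 28 of 45 tested, 19 (42.2%) by more than 2-fold, and lower for 12, of which 9 (20%) beyond 2-fold. BIRC3, an inhibitor of cell death that NF-kB induces, had 0.82, 1.54 and 1.08 CPM in Huh7 and 78.9, 89.2 and 77.7 CPM in HCCLM3 and was 71.4-fold higher in HCCLM3 (log2 fold change 6.16 ± 0.11 SE, edgeR adjusted p = 1.39e-23). Some chemokines were lower in HCCLM3. CCL20 had 195, 181 and 185 CPM in Huh7 and 7.97, 8.26 and 7.09 CPM in HCCLM3, CXCL8 was 10.1-fold lower in HCCLM3 and CX3CL1 23.2-fold lower in HCCLM3. CCL28 had 7.23, 7.14 and 8.24 CPM in HCCLM3 and none in Huh7.

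Interferon response and antigen presentation were higher in HCCLM3 for 35 of 49 tested, 29 (59.2%) by more than 2-fold against 23.1% of all genes, and lower for 9, of which 4 (8.16%) beyond 2-fold. The median log2 fold change was 1.48. OAS2, which senses double-stranded RNA, had 0.131, 0.2 and 0.23 CPM in Huh7 and 56.9, 57.98 and 56.9 CPM in HCCLM3 and was 299.7-fold higher in HCCLM3 (log2 fold change 8.23 ± 0.15 SE, edgeR adjusted p = 6.01e-24). OASL and IRF7, the factor that amplifies interferon, had 12.1 and 9.26 CPM in HCCLM3, and under 0.1 CPM in each Huh7 library. Some members ran against the list. The antiviral proteins MX2 and MX1 were lower, at 119 CPM in Huh7 and 0.0233 CPM in HCCLM3, and 10.99 CPM in Huh7 and 0.81 CPM in HCCLM3.

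Genes of cell death and cell cycle arrest were higher in HCCLM3 for 28 of 52 tested and lower for 18. Beyond 2-fold, 6 (11.5%) were lower and 13 (25%) higher, beside 24.6 and 23.1% of all genes. The cell cycle inhibitor CDKN1A had 13.9, 15.1 and 15.6 CPM in Huh7 and 128, 125 and 123 CPM in HCCLM3 and was 8.43-fold higher in HCCLM3 (log2 fold change 3.08 ± 0.06 SE, edgeR adjusted p = 1.92e-23). MYCN had 108, 104 and 101 CPM in Huh7 and 0.235, 0.07 and 0.36 CPM in HCCLM3 and was 456-fold lower in HCCLM3 (log2 fold change -8.83 ± 0.14 SE, edgeR adjusted p = 2.18e-24), while MYC had 46.8 CPM in Huh7 and 169 CPM in HCCLM3. CCND3, a D-type cyclin, was 9.95-fold higher in HCCLM3, and CCND1 1.14-fold lower in HCCLM3. RB1 had 74.9 CPM in Huh7 and 22.4 CPM in HCCLM3, and CDKN2A 42.7 CPM in Huh7 and 33.3 CPM in HCCLM3. Mitosis and DNA replication genes differed by small amounts. Of 59, all tested, 36 were lower in HCCLM3 and 14 higher, 10 (16.9%) by more than 2-fold lower and none by more than 2-fold higher. BRCA2 was 3.98-fold lower in HCCLM3 (log2 fold change -1.99 ± 0.07 SE, edgeR adjusted p = 1.14e-17), RRM2 3.05-fold lower in HCCLM3, and the kinase PLK1 1.68-fold higher in HCCLM3. In the si-circASH2 libraries the median of this list was 0.29 in place of -0.23.

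Markers of other cell types were looked at as a check of the cultures. Fibroblast markers summed to 0.00402 to 0.00475% of the counts in Huh7 and 0.00357 to 0.00391% in HCCLM3, with 8 of 12 tested, 5 lower and 2 higher, all 7 beyond 2-fold. Endothelial markers summed to 0.00525 to 0.0054% and 0.0114 to 0.0121%, with 7 of 12 tested, 4 higher and 2 lower, all but 1 beyond 2-fold. Leukocyte markers summed to 0.0365 to 0.0396% in Huh7, nearly all from lysozyme (LYZ), and 0.00307 to 0.00351% in HCCLM3, with 5 of 12 tested, 3 higher and 2 lower, each beyond 2-fold. LYZ had 397, 369.6 and 359 CPM in Huh7 and 0.101, 0.245 and 0 CPM in HCCLM3, whereas PTPRC (CD45), which defines leukocytes, had no count in Huh7 and 0.572, 0.63 and 0.556 CPM in HCCLM3. Single markers were expressed while others of their list were not. CD79A, of B cells, had 0.298 CPM in Huh7 and 25.1 CPM in HCCLM3, and ESAM, of endothelium, 1.03 CPM in Huh7 and 84.2 CPM in HCCLM3. The fibroblast marker lumican (LUM) had 2.801 CPM in Huh7 and 34.3 CPM in HCCLM3, with COL1A1 at 4.21 CPM in Huh7 and 0.218 CPM in HCCLM3. PECAM1 (CD31), of endothelium and some carcinoma lines, had 25.96 CPM in Huh7 and 15.1 CPM in HCCLM3. Untested markers of these 3 lists had at most 0.437 CPM in any library, and CD3E, of T cells, had no count in any. CD3D and CD3G, also of T cells but outside these lists, were expressed in Huh7. CD3D had 9.74, 9.01 and 12.2 CPM in Huh7 and 0, 0 and 0.131 CPM in HCCLM3. CD3G had 1.705, 1.669 and 6.197 CPM in Huh7 and 0, 0.14 and 0 CPM in HCCLM3. The part of other cell types in the differences between the lines was not tested. Of 26 neural genes, 16 were tested, 10 higher in HCCLM3 and 5 lower. Beyond 2-fold, 5 (31.2%) were lower and 9 (56.2%) higher. The neuronal tubulin TUBB3 had 20.2, 19.7 and 21.5 CPM in Huh7 and 135, 134 and 128 CPM in HCCLM3, and MAP2, which binds microtubules in neurons, was 10.8-fold higher in HCCLM3.

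Position along the chromosomes was described next, with 14038 genes ordered by GENCODE 29 on GRCh38. Runs of at least 3 neighbouring tested genes, each more than 8-fold apart in the same direction, were counted. There were 63 runs of 217 genes lower in HCCLM3, the longest of 8, and 35 runs of 143 genes lower in Huh7, the longest of 15. The run of 8 is the SERPINA cluster on chromosome 14 (chr14:94146128-94624055), from PPP4R4 to SERPINA3, which includes SERPINA1 and SERPINA6. SERPINA5, the protein C inhibitor, had 59.95, 58.9 and 58.8 CPM in Huh7, with no count in HCCLM3. Other runs low in HCCLM3 were the fibrinogens (chr4:154562956-154612967), the 7 metallothioneins (chr16:56608199-56684196), AHSG to KNG1 (chr3:186612923-186744410) and APOE to APOC2 (chr19:44905754-44949565). APOE, which clears remnant lipoproteins, had 1041, 1076 and 1056 CPM in Huh7 and 0.975, 1.05 and 0.556 CPM in HCCLM3. On chromosome 19, 7 runs low in HCCLM3 held zinc finger (ZNF) genes. Runs low in Huh7 included 6 S100A genes (chr1:153534599-153613145), AKR1B1 to AKR1B15 (chr7:134442350-134579875) and MMP7 to MMP1 (chr11:102520508-102798160). Neighbours in such clusters are often related copies and are not independent of each other.

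Around MET, several neighbours were also higher in HCCLM3. CAV2 (chr7:116287380-116508541), CAV1 (chr7:116524785-116561184) and MET (chr7:116672390-116798386) formed a run on chromosome 7. Upstream of them, MDFIC had 49.6, 51.2 and 42.9 CPM in Huh7 and 486, 474 and 499 CPM in HCCLM3, 10.2-fold higher in HCCLM3 (log2 fold change 3.34 ± 0.05 SE, edgeR adjusted p = 1.53e-23). TES, a focal adhesion protein, had 129, 122 and 127 CPM in Huh7 and 832, 824 and 814 CPM in HCCLM3, 6.55-fold higher in HCCLM3 (log2 fold change 2.71 ± 0.03 SE, edgeR adjusted p = 6.83e-27). The next 2 tested genes past MET differed by less than 2-fold. CAPZA2, whose start lies 0.139 Mb beyond that of MET, had 104 CPM in Huh7 and 146 CPM in HCCLM3, and ST7, at 0.281 Mb, 34.8 CPM in Huh7 and 22.98 CPM in HCCLM3. Further on, 3 low genes, among them CTTNBP2 with 2.58 CPM in Huh7, had no count in HCCLM3. On the far side of MDFIC, FOXP2 was lower in HCCLM3, with 19.4 CPM in Huh7 and 0.057 CPM in HCCLM3. Copy number was not measured here.

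**Figure D5:**
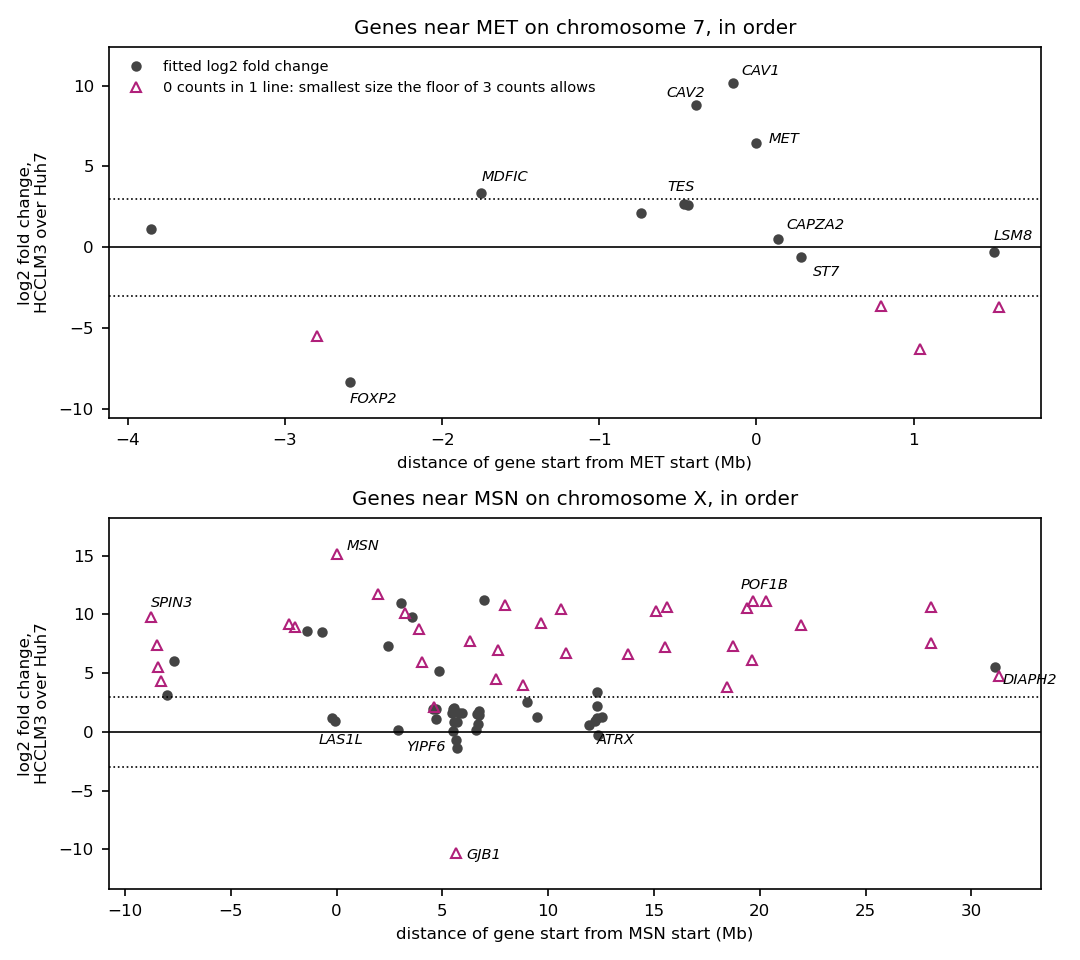
Log2 fold change, HCCLM3 over Huh7 (y axis), of tested genes against the distance of their start from that of MET (upper panel) or MSN (lower panel), in Mb; circles are fitted values, triangles genes with 0 counts in 1 line drawn at the smallest size that 3 counts allow, and dotted lines mark 8-fold. CAV2, CAV1 and MET lie above the upper line, and CAPZA2 (0.49) and ST7 (-0.60) between the lines. On X, genes at 0 in Huh7 stand among genes that differed by less than 2-fold, such as LAS1L (0.90) and YIPF6 (0.16). Others between the lines, such as RLIM (2.52), were further up in HCCLM3.

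Several runs low in Huh7, the longest among them, lay close together on the X chromosome. The stretch from SPIN3 to RPA4 (chrX:56818298-97604997) was set by the first and last genes of these runs. Its count of low genes was thus partly fixed by that choice. Of 75 genes tested there, 45 were more than 8-fold lower in Huh7, beside 8.96% of all features, and 34 had no count in Huh7. MSN (chrX:65588377-65741931) and EFNB1 lie in this stretch. STARD8, a GTPase activating protein, had 140, 139 and 131 CPM in HCCLM3 and 0.0656, 0 and 0.131 CPM in Huh7. POF1B, an actin binding protein, had 70.9, 72.3 and 74.2 CPM in HCCLM3 and none in Huh7. The stretch was not silent throughout. Of 65 genes with at least 1 CPM in HCCLM3, 28 had no count in Huh7 and 29 had at least 1 CPM there. LAS1L, of ribosome assembly, had 58.02, 62.2 and 57.6 CPM in Huh7 and 112, 110 and 109.8 CPM in HCCLM3, next to MSN. ATRX, a chromatin remodeller, had 110.3, 103 and 107 CPM in Huh7 and 161, 157 and 155 CPM in HCCLM3. GJB1, the gap junction protein of hepatocytes, was the 1 gene of the stretch that was more than 8-fold lower in HCCLM3, with 39.4, 43.2 and 46.3 CPM in Huh7 and none in HCCLM3. Medians over whole chromosomes used named genes with a single position and a mean of at least 1 CPM in either line. The median log2 fold change was 1.07 on X (424 genes), 0.66 on 8 (436 genes) and -0.9985 on 13 (209 genes). On the other chromosomes it lay between -0.39 and 0.28. Of the genes on 13, where BRCA2, CPB2, F7 and F10 lie, 49.8% were called and more than 2-fold lower in HCCLM3. The part of position in the differences of these genes was not tested.

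The same contrast was read in the 6 si-circASH2 libraries, within the fit of all 12 libraries and with its shared estimate of spread. These 6 are separate libraries of the same lines. Of 3921 genes more than 2-fold higher in HCCLM3 with si-NC, 3800 were called in the same direction there, 3467 of them beyond 2-fold. Of 4174 more than 2-fold lower, 4073 were called alike, 3827 beyond 2-fold. For differences over 8-fold, 1508 of 1518 and 1981 of 1989 were called in the same direction. ALB was -11.56 in si-NC and -11.55 in si-circASH2 libraries on the log2 scale, and MET 6.45 and 6.07. A test of the difference between the 2 contrasts passed for 3538 genes, 402 of them by more than 2-fold. That test also holds the effect of the siRNA in either line.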

How the data were processed

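Messenger RNA sequencing libraries from Huh7 and HCCLM3 cells were grouped by cell line and siRNA as the labels give them, 4 groups of 3. The authors deposited 1 table of counts per gene, whole numbers that are not normalized, and 1 table of FPKM, per the file headers. Aligner and counting tool: not given in the sources used here, nor is an annotation. Per the submitters' processing notes, the builds hg38, GRCm38 and mm10 were listed, with no role, so the deposited counts were read as human genes by their symbols. Of the tested features, 2505 were assembled loci without a gene name. They entered the fit and are not named.

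Counts of all 12 libraries were fitted with edgeR 4.0.16 in R 4.3.3 (TMM factors, filterByExpr with a minimum count of 10, robust quasi-likelihood fit with 8 residual degrees of freedom before moderation, Benjamini-Hochberg adjustment at 0.05), and the contrast was HCCLM3 minus Huh7 with si-NC. Replicate libraries differed by more than sampling noise (chi-square per degree of freedom 3.89 to 6.61). On simulated data with the depth of these libraries, the fit recovered 61 of 68 genes changed by 0.5 on the log2 scale. It recovered 61 of 61 changed by 1 and 71 of 71 changed by 3. That simulation changed only a small set of well expressed genes, at a fixed spread. It therefore cannot speak for the scaling where most features differ, or for calls near 0. With 3 libraries against 3 an exact permutation test cannot give a p below 0.1, so none is given. Positions come from GENCODE 29 (GRCh38) by symbol.

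The gene lists and the members described were chosen with earlier results of these data known. Named are the 10 genes furthest up and down with at least 20 CPM, the 3 called list members furthest up and down with at least 5 CPM, a fixed panel, and members of runs. Outside this rule, AFM, ANGPTL4, FDPS and LDHA are mentioned as members that did not pass, and CD3E as untested. The genes APOB, ARG1, ATRX, CAPZA2, COL1A1, CP, CPS1, CTTNBP2, ERBB3, FOXP2, GJB1, GLUL, GSS, HGF, ITGA3, ITGB4, KLB, LAMA3, LAS1L, MDFIC, MYC, PTPRC, ST7, TES, TF, TIMP1, TIMP2 and TXNRD1 were added after their values were seen. Of the 34 lists, 135 members were too low to be tested. Some genes that the rule names are not reported here. Alternatives were DESeq2 1.42.0, other scaling factors and filters, limma 3.58.1 on log2(FPKM + 0.1) and log2(FPKM + 1), the 6 si-NC libraries alone, a block for the replicate number, and leaving out each library.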

Additional observations from a re-analysis of the deposited data

Results flagged for a closer look

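Described here are 21 of the genes named by rule, with genes named only as members of runs left out. For each, the difference between the lines was itself different in the si-NC and the si-circASH2 libraries. It was so by more than 2-fold and past edgeR's interaction test over all features. Log2 fold changes, HCCLM3 over Huh7, are given first for si-NC and then for si-circASH2 libraries. These differences combine the effects of the siRNA in both lines, and 3538 features (402 of them beyond 2-fold) passed the same test. Several rest on few counts in the lower line. Over the Huh7 si-NC libraries CBR3 had 11 counts, CYP24A1 23 and CD79A 27. Over the HCCLM3 si-NC libraries MYCN had 20 counts, ONECUT1 24 and APOA2 34. The 21 are not all the named genes that met these limits. Members of runs that met them included F7 and CD44, the latter at 5.62 and 4.39 (difference -1.23, edgeR adjusted p = 3.75e-10). ABCG8, without a count in HCCLM3 with si-NC, also met them (difference 4.13, edgeR adjusted p = 0.0395) and is not among the 21.

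Genes higher in HCCLM3 whose difference was smaller in the si-circASH2 libraries came from several lists. They were CYP24A1 8.49 and 5.53 (difference -2.96), CBR3 6.69 and 4.89 (difference -1.80), CEACAM6 11.38 and 9.66 (difference -1.72) and MYOF 5.45 and 3.76 (difference -1.69). CYP24A1 breaks down vitamin D, and its edgeR adjusted p for the interaction was 1.89e-09. The same held for CIDEC 3.25 and 1.66 (difference -1.59), BIRC3 6.16 and 4.66 (difference -1.50) and CDKN1A 3.08 and 1.60 (difference -1.48). CDKN1A, the inhibitor of cyclin-dependent kinases, had an edgeR adjusted p of 7.47e-12. Smaller changes of this kind were those of ITGAM 2.23 and 0.92 (difference -1.32), KYNU 4.50 and 3.26 (difference -1.24), AKR1B10 5.99 and 4.86 (difference -1.12) and ESAM 6.34 and 5.25 (difference -1.10). 2 genes higher in HCCLM3 had a larger difference in the si-circASH2 libraries, CD79A 6.38 and 9.03 (difference 2.64) and BAAT 5.09 and 6.16 (difference 1.07).

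Genes lower in HCCLM3 with a smaller difference in the si-circASH2 libraries were APOA2 -12.18 and -9.0008 (difference 3.18), ONECUT1 -5.44 and -3.16 (difference 2.28) and MCAM -5.04 and -3.29 (difference 1.74). APOA2, of high density lipoprotein, had the largest difference among the 21, with an edgeR adjusted p of 2.15e-12. They also included FST -9.42 and -8.05 (difference 1.37), MYCN -8.83 and -7.56 (difference 1.27) and SLC27A2 -4.13 and -3.13 (difference 1.0045). SLC27A2 activates very long chain fatty acids, and its edgeR adjusted p of 0.0439 was the nearest to the threshold. 2 genes lower in HCCLM3 had a larger difference in the si-circASH2 libraries, NR0B2 -3.08 and -4.98 (difference -1.91) and MYH14 -7.42 and -8.91 (difference -1.49).

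All 21 kept the direction of the line difference in both sets of libraries.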

How the results depend on the processing

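The count of features called was within 1.5 times of 14445 under every alternative run. Counts by fold size fell with settings that leave out or compress low values. Requiring at least 5 CPM in 1 line left 4957 genes beyond 2-fold (2491 higher and 2466 lower in HCCLM3) and 1723 beyond 8-fold (784 and 939), since fewer genes were tested. With limma on log2(FPKM + 0.1), 2047 were beyond 8-fold (946 higher, 1101 lower). With log2(FPKM + 1), 4446 were beyond 2-fold (2331 higher, 2115 lower) and 589 beyond 8-fold (292 and 297), since the pseudocount shrinks the folds of low genes. With limits of 1 and 0.05 CPM, 554 genes were on in Huh7 only, in place of 336. Leaving out single libraries gave 14270 to 14318 calls, 8187 to 8225 beyond 2-fold and 3612 to 3650 beyond 8-fold. Libraries with the same number share only that number: their deviations correlated at 0.0332, -0.0717 and 0.0256. Fitted alone, the 6 si-NC libraries gave 13995 calls (7614 beyond 2-fold, 3182 beyond 8-fold). With a replicate block the 12 libraries gave 14406 calls (8086 beyond 2-fold, 3519 beyond 8-fold), and the 6 si-NC libraries 13744 (7577 and 3196). Medians near 0 changed sign in a few cases. With the filter of 5 CPM those of cytochromes P450, glycolysis and Wnt genes became 0.0044, 0.0921 and 0.2243, and that of chromosome 1 became 0.0140. The median of junction genes was -0.0006 with upper quartile factors and -0.2231 in the si-circASH2 libraries, and that of mitosis genes 0.2855 there. YAP1 was at -0.0138 in the si-circASH2 libraries (edgeR adjusted p = 0.759). The cause of these sign changes was not tested. Of 9114 values of named genes under the alternatives, 24 (of 13 genes) lost the call with their direction kept, 9 of them of HNF4G, besides that of YAP1. Among the scaling factors, the largest median shift from the main fit was -0.0205, with upper quartile factors. Over all alternatives it was -0.0233, with the filter of 5 CPM. The median log2 fold change of all genes tested ranged from -0.0593 (upper quartile factors) to -0.0067 (no filter). Depth limits the values near 0, where a line's level rests on single counts.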

Other observations

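Several genes at the top of the ranking belong to none of the lists. In HCCLM3 they include DHRS9, a short-chain dehydrogenase that acts on retinoids and steroids, with 141, 146 and 125 CPM in HCCLM3. The transcription factor MSC (musculin) had 120.2, 108 and 118 CPM in HCCLM3, the lipid phosphatase PLPP2 96.8, 93.4 and 96.8 CPM in HCCLM3 and TUSC3, of N-linked glycosylation, 93.8, 94.4 and 93.5 CPM in HCCLM3. OLFM1, a secreted olfactomedin of the nervous system, had 91.9, 90.7 and 92.4 CPM in HCCLM3, and IL13RA2, a decoy receptor for interleukin 13, 79.9, 86.4 and 82.7 CPM in HCCLM3. IFI16, a sensor of DNA in the nucleus, had 85.8, 83.7 and 83.6 CPM in HCCLM3. None of these 7 had a count in Huh7. On the Huh7 side stood ADGRL2, a latrophilin of cell adhesion, with 196, 195 and 197 CPM in Huh7 and no count in HCCLM3.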
